A study of Mus musculus with 4 samples.

Results

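The genes examined here encode the enzymes that make serine from a glycolytic intermediate and pass its carbon to folate. The members were the 9 rows of the deposited table whose symbol was Phgdh, Psat1, Psph, Shmt1, Shmt2, Mthfd1, Mthfd2, Mthfd1l or Mthfd2l, of 17921 genes in all, and all 9 passed the filter on low counts that left 12680 genes to test. RNA sequencing was done on mouse Th17 cells, which are named after the interleukin 17 they secrete. Naive CD4+ T cells had been taken from 2 knockout (PRAK KO) and 2 wild-type (WT) animals and polarised in vitro for 72 h, and every cell present on day 3 was used. PRAK is the kinase encoded by Mapkapk5. Each library came from 1 mouse and is named by genotype and mouse number (WT 1, WT 2, KO 1, KO 2). The sources used here do not give the strain, age or sex of the mice, the deleted part of the gene, or whether the deletion was limited to T cells. Because the cells were collected in bulk, fewer cells of a type and less RNA per cell cannot be told apart.

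Serine is built from 3-phosphoglycerate in a short pathway run by PHGDH, PSAT1 and PSPH. The serine hydroxymethyltransferases SHMT1 (cytosol) and SHMT2 (mitochondria) then split it into glycine and a carbon unit carried by tetrahydrofolate. In mitochondria that unit is oxidised by MTHFD2 or MTHFD2L and released as formate by MTHFD1L, and in the cytosol MTHFD1 takes formate up again for the synthesis of purines and thymidylate. Activated T cells are known to raise this pathway when they begin to divide, and the transcription factor ATF4 is known to drive many of its genes.

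In PRAK KO cells the folate enzymes split: Mthfd1, Mthfd2 and Mthfd2l rose, while Mthfd1l fell. Mthfd1 and Mthfd2 rose 1.78-fold and 1.83-fold, Mthfd2l rose 4.40-fold from a very low level, and Mthfd1l fell to 0.488 of its WT level (edgeR quasi-likelihood test, adjusted p under 0.05). Phgdh, Psat1, Psph, Shmt1 and Shmt2 did not pass the test, and each was much higher in KO 1 than in KO 2. So 3 of the 9 genes were called higher in KO, beside 5.14% of all genes tested, and 1 was called lower, beside 8.23%. No call among the 9 was kept with WT 1 or with WT 2 left out. A fit with 1 library in a genotype takes its spread from the other genotype alone. The number of calls moved strongly between such fits, for these 9 genes and for all genes tested, so it is not read as a trait of the 9. The median log2 fold change of the 9 was 0.71, beside 0.02 over all genes tested, and it was 0.23 without KO 1 and 1.05 without KO 2. Among all genes tested, 1695 were called, or 13.4%. Of these 38.5% were higher in KO, and 51.5% with scaling by library size alone, which moved the median of all genes to 0.12 and changed neither the direction nor the call of any of the 9 genes.

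**Figure D1:**
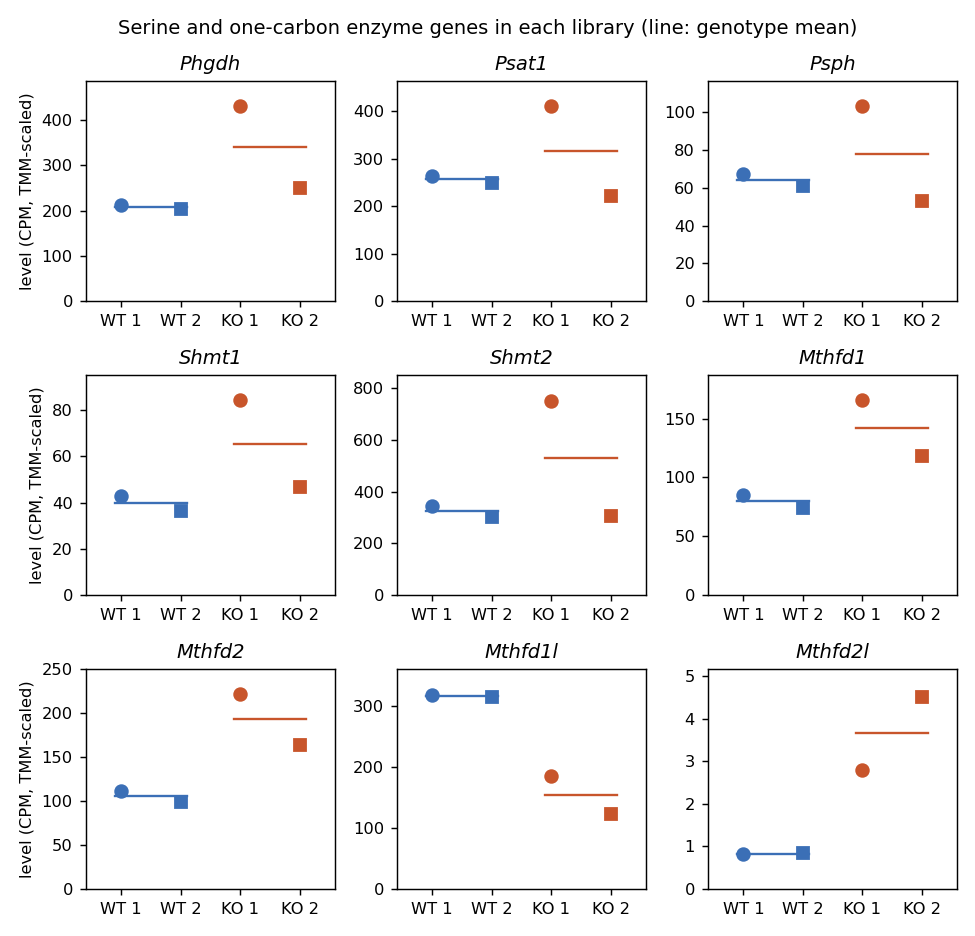
Level of each enzyme gene in the 4 libraries, in CPM (library-scaled counts with TMM factors, each axis from 0). Blue points are WT and orange points KO mice (circles mouse 1, squares mouse 2), and lines are genotype means. KO 1 is the highest library for Phgdh, Psat1, Psph, Shmt1, Shmt2, Mthfd1 and Mthfd2, and both KO libraries lie below WT for Mthfd1l.

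Total expected counts lay between 19418012 and 20125124 per library. Mapkapk5, the targeted gene, gave 35.6 and 38.4 CPM in the WT libraries against 20.04 (KO 1) and 21.6 (KO 2), so it was lower in both KO libraries (-0.83 on the log2 scale, adjusted p = 0.0194, edgeR). With WT 1 left out its adjusted p was 0.103, and with WT 2 left out 0.188. A count over the whole gene does not show how much intact transcript was left. The T cell genes Cd3d, Cd3e, Cd3g, Cd4, Lat and Lck summed to 2344 CPM (WT 1), 2431 CPM (WT 2), 1986 CPM (KO 1) and 2562 CPM (KO 2), lowest in KO 1 and highest in KO 2. Cd4 gave 739 and 854 CPM in WT, against 516 CPM (KO 1) and 939.5 CPM (KO 2). None of these 6 genes was called by edgeR, DESeq2 or limma (0 at an unadjusted p under 0.05), but without KO 2 edgeR called 1 higher and 4 lower. Of the cytokine genes that mark Th17 cells, Il17f gave 2224 and 1987 CPM in WT, against 1994 CPM (KO 1) and 637 CPM (KO 2), and Il17a gave 474 and 418 CPM, against 643 and 237 CPM. Neither passed the test (adjusted p = 0.410 and 0.981, edgeR), and both were lowest in KO 2. The interleukin 23 receptor gene Il23r fell (log2 fold change -1.77, adjusted p = 0.0390) and the chemokine receptor gene Ccr6 rose (1.12, adjusted p = 0.00963, edgeR), while Rora did not pass (-0.21, adjusted p = 0.288). Of 6 Th17 markers DESeq2 called 1 lower and limma 0, so the fall of Il23r was not called by limma. The part of these differences in the results below was not tested. The 2 KO libraries were less alike than the 2 WT libraries (Pearson r across genes 0.981 against 0.996, on log2(CPM + 1), where genes are not independent replicates).

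Compared per length in TPM, the authors' length-scaled transcript unit, the mitochondrial serine hydroxymethyltransferase gene Shmt2 was the most abundant of the 9 in WT cells, at 276.9 and 234 TPM. Psat1, the transaminase gene, followed at 224 and 204 TPM, and Phgdh, the gene of the first and committed enzyme, at 209.8 and 195 TPM, and their ranges overlapped. Mthfd1l came next at 157 and 150.1 TPM, then Mthfd2 at 99.6 and 85.4, and the phosphatase gene Psph at 84.9 and 72.9. The cytosolic genes Mthfd1 (47.2 and 39.7 TPM) and Shmt1 (38.7 and 31.7) were the lowest but for Mthfd2l, at 0.7 and 0.66. No other neighbours in this order overlapped. Shmt2 and Psat1, Mthfd2 and Psph, and Mthfd1 and Shmt1 were separated by less than the spread of either, however. In KO cells Mthfd1l ranked below Mthfd2, Psph and Mthfd1 by mean TPM. Apart from Mthfd2 against Psph and Shmt1 against Mthfd2l, each gene overlapped the next one in the KO order. The 9 genes summed to 1139 TPM (WT 1), 1014 TPM (WT 2), 2151 TPM (KO 1) and 1084 TPM (KO 2), so the sum was about doubled in KO 1 and within the WT range in KO 2.

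The stretches before the starts of Phgdh, Psat1, Mthfd2 and Mthfd1l are shown as examples. The first 3 were highest in KO 1, as were Psph, Shmt1, Shmt2 and Mthfd1, which are not shown, and Mthfd1l went the other way. Each stretch is the 250 bases before the first RefSeq start listed for the gene (build GRCm38.p6), read 5′ to 3′ on the gene's strand. Capitals mark CCAAT boxes on either strand, the letters bound by the factor NF-Y.
Phgdh, chr3:98339970-98340219, minus strand: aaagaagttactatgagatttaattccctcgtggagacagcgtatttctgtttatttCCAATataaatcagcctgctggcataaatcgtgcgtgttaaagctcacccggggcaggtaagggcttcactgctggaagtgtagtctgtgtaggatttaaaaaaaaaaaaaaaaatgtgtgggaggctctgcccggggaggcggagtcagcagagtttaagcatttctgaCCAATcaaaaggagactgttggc
Psat1, chr19:15925060-15925309, minus strand: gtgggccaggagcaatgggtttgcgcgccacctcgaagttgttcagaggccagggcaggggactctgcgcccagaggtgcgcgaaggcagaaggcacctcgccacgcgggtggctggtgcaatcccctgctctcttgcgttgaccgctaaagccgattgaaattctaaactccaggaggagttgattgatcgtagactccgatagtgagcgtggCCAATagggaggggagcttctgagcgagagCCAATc
Mthfd2, chr6:83317605-83317854, minus strand: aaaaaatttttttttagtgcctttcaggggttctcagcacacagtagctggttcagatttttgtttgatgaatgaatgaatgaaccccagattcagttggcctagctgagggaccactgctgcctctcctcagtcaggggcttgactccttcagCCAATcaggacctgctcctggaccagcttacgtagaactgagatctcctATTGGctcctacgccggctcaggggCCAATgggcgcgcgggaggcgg
Mthfd1l, chr10:3972825-3973074, plus strand: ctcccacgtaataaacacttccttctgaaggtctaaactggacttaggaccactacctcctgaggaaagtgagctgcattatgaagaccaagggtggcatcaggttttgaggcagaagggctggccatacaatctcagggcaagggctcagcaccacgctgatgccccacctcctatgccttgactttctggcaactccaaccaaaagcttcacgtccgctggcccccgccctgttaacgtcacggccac
Phgdh and Psat1 each held 2 such boxes, Mthfd2 held 3, and Mthfd1l held none. The windows of Shmt2, highest in KO 1 too, and of Mthfd2l, which rose, also held none. The part of the boxes in the changes was not tested. Over the 9 genes the box was found for Phgdh, Psat1, Psph, Shmt1, Mthfd1 and Mthfd2, that is 6 of 9, and in 33.9% of all 32851 windows of the same length. The promoter table lists a further start for Psat1, whose window held none. The start used is not always the outermost end of the gene: the windows of Mthfd2, Mthfd1 and Mthfd2l lie wholly inside the span given for the gene, and those of Psph and Mthfd1l partly. The Mthfd2 stretch shown, with its 3 boxes, is therefore not the sequence before the outermost end of Mthfd2, and 2 of its bases are exonic in GENCODE M21. Exons cover all 250 bases of the windows of Psph (Cct6a and Psph) and Mthfd1 (Gm47525). They cover 79 bases for Mthfd2l, 49 for Shmt1 and 21 for Phgdh. The other motifs were searched on both strands in the same way. The C/EBP-ATF element TGATGNAA was in 0 of 9 windows and in 3.45% of all windows, and the E-box CACGTG in 0 of 9 and 6.02%. The core of the antioxidant response element, TGACNNNGC, was found for Phgdh, and in 10.2% of all windows. The core of the hypoxia response element, ACGTG, which also lies within the E-box, was found for Psph and Mthfd1l, and in 16.6% of all windows. A match is a string of letters and not a shown binding site, and these windows leave out most of each gene and all sequence further upstream.

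None of the 3 genes of serine synthesis passed the test, and all 3 were highest in KO 1. Phgdh (gene ID 236539, chromosome 3, 98313171 to 98339969, minus strand) gave 212 CPM (WT 1) and 203 CPM (WT 2), against 430.4 CPM (KO 1) and 249.7 CPM (KO 2). Both KO libraries lay above both WT libraries, KO 1 by far the most. The log2 fold change was 0.71 ± 0.26 SE with a 95% interval from 0.06 to 1.37, and it did not pass (adjusted p = 0.133, edgeR). Without KO 1 it was 0.27 (adjusted p = 0.0437), and without KO 2 it was 1.05. With DESeq2 the adjusted p of Phgdh was 0.0337, and over the 10 alternatives it ran from 1.24e-05 to 0.453.

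Psat1 (chromosome 19, 15905123 to 15925059, minus strand), the aminotransferase of the middle step, gave 264 and 249 CPM in the WT libraries, against 412 CPM (KO 1) and 221 CPM (KO 2). The WT libraries lay between the KO libraries. Its log2 fold change was 0.30 (95% interval -0.42 to 1.03, adjusted p = 0.521, edgeR), and it was -0.21 without KO 1. Psph (chromosome 5, 129765558 to 129787443, minus strand), the phosphatase of the last step, showed the same layout, with 67.5 and 60.9 CPM in WT, against 103 CPM (KO 1) and 52.7 CPM (KO 2). Its log2 fold change was 0.28 (95% interval -0.49 to 1.06, adjusted p = 0.578, edgeR), and -0.28 without KO 1. Exons of Psph share 452 bases with the opposite-strand gene Cct6a, which had 24659 expected counts over the 4 libraries, and without strand the reads there cannot be told apart.

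Neither serine hydroxymethyltransferase gene passed the test, and both were highest in KO 1. Shmt2 (chromosome 10, 127517123 to 127522444, minus strand) gave 345 and 302 CPM in the WT libraries, against 751 CPM (KO 1) and 305 CPM (KO 2). KO 2 lay within the WT range and KO 1 was 2.32 times the WT mean. The log2 fold change of Shmt2 was 0.71 ± 0.41 SE (95% interval -0.32 to 1.73, adjusted p = 0.297, edgeR), with -0.084 without KO 1 and 1.21 without KO 2. Shmt1 (chromosome 11, 60788897 to 60811265, minus strand), the cytosolic form, gave 42.9 and 36.4 CPM in WT, against 84.2 CPM (KO 1) and 46.5 CPM (KO 2). Both KO libraries were above WT, KO 2 narrowly. Its log2 fold change was 0.72 ± 0.29 SE (95% interval 0.00045 to 1.44, adjusted p = 0.158, edgeR), with 0.23 without KO 1 and 1.08 without KO 2, where it was called (adjusted p = 2.99e-05). Shmt1 shares 184 exon bases with the opposite-strand gene Smcr8.

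Among the folate enzymes, Mthfd2 (gene ID 17768, chromosome 6, 83305704 to 83326011, minus strand), the mitochondrial dehydrogenase and cyclohydrolase, gave 111 CPM (WT 1) and 98.7 CPM (WT 2), against 221 CPM (KO 1) and 164 CPM (KO 2). Both KO libraries lay clearly above WT. On the log2 scale it rose by 0.87 ± 0.18 SE (adjusted p = 0.0344, edgeR). Mthfd1 (gene ID 108156, chromosome 12, 76254406 to 76319820, plus strand), the cytosolic enzyme that carries the same steps and the formate-using one on a single protein, gave 85.3 and 74.1 CPM in WT, against 166 CPM (KO 1) and 118 CPM (KO 2). The genotypes did not overlap, and it rose by 0.83 ± 0.19 SE (adjusted p = 0.0456, edgeR).

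Mthfd2l (gene ID 665563, chromosome 5, 90930873 to 91021368, plus strand), the second mitochondrial dehydrogenase, was close to silent in WT cells. It had 16 expected counts in each WT library, 58 in KO 1 and 91 in KO 2, or 0.820 and 0.836 CPM in WT against 2.81 and 4.52 in KO. It is the only one of the 9 genes with KO 2 above KO 1. The log2 fold change was 2.14 ± 0.40 SE (adjusted p = 0.0281, edgeR). Even in KO cells its level per length, 2.53 and 3.8 TPM, was far below that of Mthfd2, 216 and 149 TPM.

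Mthfd1l (gene ID 270685, chromosome 10, 3972892 to 4167081, plus strand), the synthetase gene of the last mitochondrial step, was the one member that fell. It gave 318 CPM (WT 1) and 314 CPM (WT 2), against 185 CPM (KO 1) and 123 CPM (KO 2). The WT libraries were nearly equal and both KO libraries were far below them. The log2 fold change was -1.04 ± 0.21 SE, with a 95% interval from -1.56 to -0.51 (adjusted p = 0.0343, edgeR). KO 1, which was highest for Shmt2 and Mthfd2, was also above KO 2 for Mthfd1l.

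Mthfd1, Mthfd2, Mthfd1l and Mthfd2l kept their direction with each library left out, but their calls were lost with a single WT library. Without KO 1 the log2 fold changes were 0.57, 0.64, -1.36 and 2.44, and without KO 2 they were 1.05, 1.07, -0.78 and 1.75. A fit with 1 library in a genotype takes its spread from the other genotype alone. Its calls are therefore not a measure of how well these results hold. Without WT 1 the adjusted p (edgeR) was 0.0922 for Mthfd1, 0.0830 for Mthfd2, 0.0732 for Mthfd1l and 0.121 for Mthfd2l, and without WT 2 it was 0.218, 0.185, 0.0719 and 0.133. In both of these fits the log2 fold changes of these 4 genes lay between 0.74 and 0.96 for Mthfd1 and Mthfd2, between -1.05 and -1.03 for Mthfd1l and between 2.12 and 2.15 for Mthfd2l. With limma on log2(TPM + 1) Mthfd2l alone was called, and the adjusted p was 0.0670 for Mthfd1, 0.0527 for Mthfd2 and 0.0672 for Mthfd1l. Over the 10 alternatives the adjusted p ran from 2.05e-05 to 0.218 for Mthfd1, from 1.48e-05 to 0.185 for Mthfd2, from 3.47e-06 to 0.0732 for Mthfd1l and from 0.000341 to 0.133 for Mthfd2l.

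**Figure D2:**
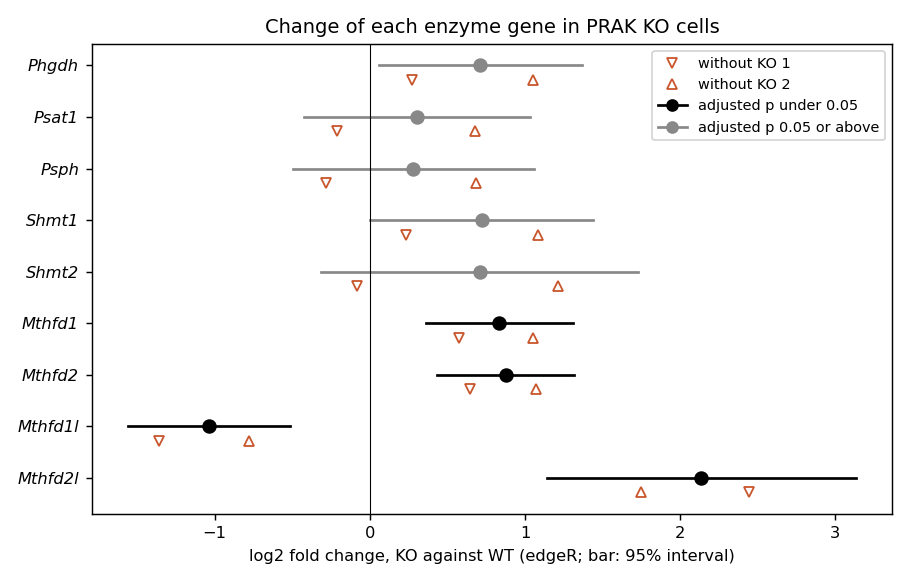
Log2 fold change of each enzyme gene in KO against WT with its 95% interval, from edgeR (black: adjusted p under 0.05, grey: 0.05 or above). Triangles give the value without KO 1 (pointing down) and without KO 2 (pointing up). Without KO 1 the values of Psat1, Psph and Shmt2 are below 0, while Mthfd1l stays below 0 and Mthfd1, Mthfd2 and Mthfd2l above 0 in both.

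Ratios of TPM within a library set the genes of related enzymes side by side. Mthfd1l exceeded Mthfd1 by 3.33 times (WT 1) and 3.78 times (WT 2), and the ratio was 0.995 (KO 1) and 0.927 (KO 2). The mean log2 ratio thus went from 1.83 ± 0.13 to -0.06 ± 0.07 (SD, n = 2 each), a difference of -1.89, and the KO libraries lay close together in spite of their different levels of both genes. The 95% intervals of the log2 fold changes of Mthfd1l (-1.56 to -0.51) and Mthfd1 (0.36 to 1.31) do not overlap. That follows from their calls in opposite directions and adds nothing to them. Mthfd2 exceeded Mthfd2l by 142 and 129 times in WT, against 85.3 times (KO 1) and 39.3 times (KO 2). The ratio of Shmt2 to Shmt1 was 7.15 and 7.39 in WT, against 7.94 (KO 1) and 5.84 (KO 2), with WT between the KO libraries. An exact two-sided permutation test of the log2 ratios over 4 libraries gave p = 0.333 for the first and second of these ratios and p = 1 for the third (adjusted over the 3 ratios 0.5, 0.5 and 1), and 0.333 is the smallest p that 2 libraries against 2 allow.

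**Figure D3:**
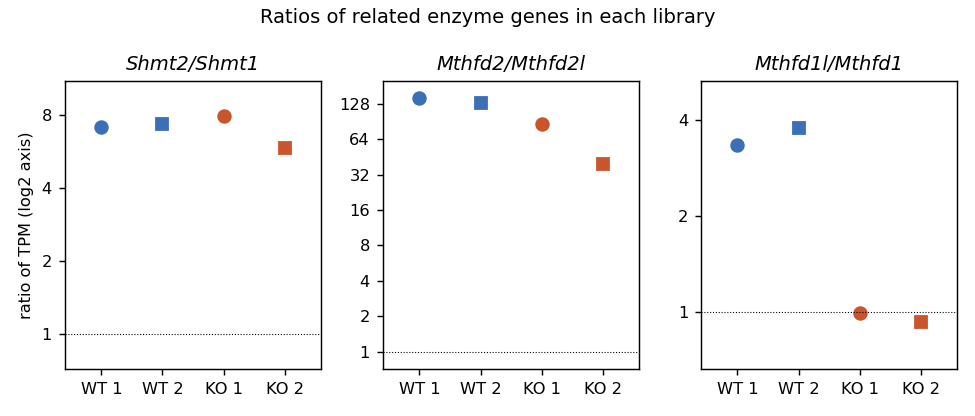
Ratio of TPM of related enzyme genes in each library, on log2 axes (blue WT, orange KO, dotted line at a ratio of 1). The ratio of Mthfd1l to Mthfd1 lies above 3 in both WT libraries and near 1 in both KO libraries, while for Shmt2 to Shmt1 the WT libraries lie between the KO libraries.

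The spread between the KO mice was itself shared by these genes. In 8 of the 9 the level in KO 1 was at least 1.3 times that in KO 2, as it was for 16.1% of all genes tested, with folds from 1.35 for Mthfd2 to 2.47 for Shmt2. The median log2 ratio of KO 1 to KO 2 was 0.79 over the 9 genes and 0.00 over all genes tested. Other lists showed it too: the median was 0.89 over 16 genes of ATF4 and its targets, 0.94 over the 2 transsulfuration genes and 0.40 over 18 proliferation genes. Between the WT mice no member differed by more than 1.18 times. Relative to the WT mean, KO 1 held 2.07 times the level of Phgdh, 1.61 times that of Psat1, 1.61 times that of Psph, 2.12 times that of Shmt1, 2.08 times that of Mthfd1 and 2.11 times that of Mthfd2. KO 2 held 1.203, 0.862, 0.822, 1.17, 1.49 and 1.56 times the same levels. Both KO libraries lay above both WT libraries for 5 of the 9 genes (Phgdh, Shmt1, Mthfd1, Mthfd2 and Mthfd2l), beside 31.7% of all genes tested, and below them for Mthfd1l, beside 31.4%.

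The genes most like Phgdh over the 4 libraries were Thop1, Mars2, Exo1, Aars and Aven, chosen among 9842 genes by the root-mean-square distance between log2(CPM + 1) values centred on each gene's mean. The distances lay between 0.02 for Thop1 and 0.04 for Aven. Aars, the cytosolic alanyl-tRNA synthetase gene, gave 198 and 186 CPM in WT, against 402 CPM (KO 1) and 242 CPM (KO 2). Mars2, the mitochondrial methionyl-tRNA synthetase gene, gave 10.3 and 9.41 CPM in WT, against 21.01 CPM (KO 1) and 12.1 CPM (KO 2). With 4 libraries many genes can share such a layout, and none of these 5 genes passed the test (adjusted p between 0.107 and 0.148, edgeR).

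Calls were made in some of the lists around the pathway, beside 5.14% of all genes tested called higher in KO and 8.23% called lower. Upstream, 3 of 5 glycolytic genes around 3-phosphoglycerate fell: Pgk1 (log2 fold change -1.41, adjusted p = 0.0102), Pgam1 (-1.08, adjusted p = 0.0226) and Gapdh (-1.17, adjusted p = 0.0232, edgeR) were lower, 0 were called higher, and the median was -1.08. Bpgm, the bisphosphoglycerate mutase gene, went the other way without passing (0.53, adjusted p = 0.213), with 14.6 and 12.5 CPM in WT against 15.4 CPM (KO 1) and 23.8 CPM (KO 2), and it was called higher without KO 1 (0.81, adjusted p = 0.00148, edgeR). Pgam2 overlapped between genotypes (-0.37, adjusted p = 0.586). Pgk1 makes 3-phosphoglycerate and Pgam1 uses it up in glycolysis, so the genes on either side of the branch point fell while Phgdh, at the branch itself, did not. Without WT 1 the adjusted p was 0.0469 for Pgk1, 0.125 for Pgam1 and 0.185 for Gapdh, and without WT 2 it was 0.0543, 0.122 and 0.294.

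Downstream, of 10 genes of the folate cycle 1 rose and 1 fell, with a median of 0.12. Over all genes tested 5.14% were called higher and 8.23% lower. A single call in a list of this size is near these shares and is not read as a trait of the list. Tyms, the thymidylate synthase gene, rose from 51.8 and 47.1 CPM to 105 CPM (KO 1) and 93.9 CPM (KO 2) (log2 fold change 1.01, adjusted p = 0.0102, edgeR, and 0.0698 without WT 2). The KO mice were nearly alike for Tyms, unlike for Phgdh or Shmt2. Aldh1l1, which oxidises formyl-folate in the cytosol, fell from 5.85 and 5.23 CPM to 2.03 and 2.14 (-1.41, adjusted p = 0.0305, edgeR). Of 3 folate transport genes tested, the proton-coupled carrier gene Slc46a1 rose from 0.667 and 0.732 CPM to 2.61 and 2.49 (1.86, adjusted p = 0.0292, edgeR), while the reduced folate carrier gene Slc19a1 (0.33, adjusted p = 0.443) and the mitochondrial carrier gene Slc25a32 (0.56, adjusted p = 0.102) did not pass. The calls of Aldh1l1 (adjusted p 0.245 without WT 1 and 0.193 without WT 2) and Slc46a1 (0.223 and 0.209) were lost with a single WT library. The folate cycle list held 3 higher and 2 lower genes without KO 1, and 4 and 1 without KO 2, and the transport list 2 and 3 higher.

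Of 13 genes of purine synthesis, which takes up folate carbon, 3 rose and 1 fell, with a median of 0.27. Beside them 5.14% of all genes tested were called higher and 8.23% lower, so the single fall is near its share. Gart, whose enzyme uses formyl-folate, rose from 91.1 and 76.8 CPM to 177 CPM (KO 1) and 127 CPM (KO 2) (0.86, adjusted p = 0.0453, edgeR). Adsl (0.66, adjusted p = 0.0292) and Prps1 (0.52, adjusted p = 0.0497) also rose, and Impdh1 fell (-0.50, adjusted p = 0.0419, and 0.0664 with scaling by library size alone, edgeR). Of 8 genes of the methionine cycle 2 rose, the salvage gene Mtap (0.75, adjusted p = 0.0233) and the methionine synthase reductase gene Mtrr (0.67, adjusted p = 0.0310, edgeR), and 0 fell, with a median of 0.11. In the purine and methionine lists 0 genes were called without WT 1 or without WT 2 (edgeR). Without KO 1 the purine list held 4 higher and 3 lower genes and the methionine list 3 and 0, and without KO 2 they held 8 and 2, and 4 and 3. Atic, which uses formyl-folate in a later purine step, did not pass (0.18, adjusted p = 0.627), nor did Mat2a, which makes the methyl donor S-adenosylmethionine (0.99, adjusted p = 0.0727).

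No gene was called by edgeR among 4 of glycine cleavage, 2 of transsulfuration and 10 of serine transport and use. At an unadjusted p under 0.05 there were 0, 0 and 3, all higher, DESeq2 called 0, 0 and 2, and limma on log2(TPM + 1) called 0 in each. In the glycine cleavage list edgeR called 1 gene higher without KO 1 and 2 without KO 2. Cth, the cystathionine gamma-lyase gene of transsulfuration, gave 26.7 and 31.6 CPM in WT, against 55.6 CPM (KO 1) and 16.1 CPM (KO 2), and was called lower without KO 1 (-0.85, adjusted p = 0.000962) and higher without KO 2 (0.93, adjusted p = 0.000112, edgeR). In the serine transport list edgeR called 2 genes higher and 0 lower without KO 1, and 7 and 1 without KO 2. Slc1a4 and Slc1a5, carriers of neutral amino acids including serine, had log2 fold changes of 1.02 (adjusted p = 0.0869) and 0.48 (adjusted p = 0.0829). Of 18 proliferation genes 0 were called by edgeR, 2 higher and 1 lower had an unadjusted p under 0.05, DESeq2 called 1 lower and limma 0. Their median was -0.01, and 0.09 with scaling by library size alone, and edgeR called 0 higher and 7 lower without KO 1 but 8 higher and 1 lower without KO 2.

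ATF4 itself and its known targets were spread. Atf4 gave 309 and 331 CPM in WT, against 581 CPM (KO 1) and 294 CPM (KO 2), so WT lay between the KO libraries as for Psat1 and Psph, and it did not pass (log2 fold change 0.45, adjusted p = 0.383, edgeR). Of 16 genes of this list 2 rose, Slc7a11, the cystine carrier gene (2.39, adjusted p = 0.0106), and Sesn2, a stress gene (1.80, adjusted p = 0.00604). Vldlr, a lipoprotein receptor gene, fell (-4.24, adjusted p = 0.00319, edgeR). These calls stand beside 5.14% of all genes tested called higher and 8.23% called lower, and the single fall is near its share. The median of the list was 0.37. Without KO 1 it was -0.24, with 2 genes higher and 5 lower, and without KO 2 it was 0.71, with 12 higher and 1 lower. The calls of Slc7a11, Sesn2 and Vldlr held with each library left out in turn. Asns, the asparagine synthetase gene, gave 115 and 131 CPM in WT, against 229.9 CPM (KO 1) and 77.7 CPM (KO 2). Chac1, a glutathione-degrading enzyme gene, gave 7.18 and 6.33 CPM in WT, against 26.8 CPM (KO 1) and 5.32 CPM (KO 2). Myc, another known driver of these enzymes, had a log2 fold change of 0.00 (adjusted p = 0.992), and Nfe2l2, the gene of NRF2, of -0.21 (adjusted p = 0.369, edgeR).

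**Figure D4:**
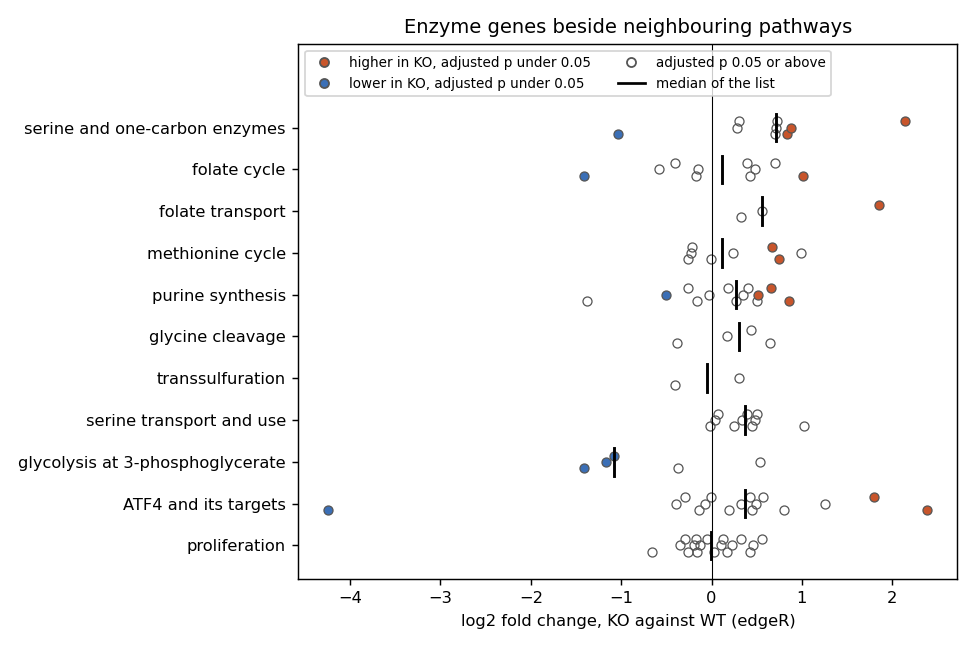
Log2 fold change in KO against WT of every tested gene of the enzyme list and of 10 neighbouring lists (1 point per gene, edgeR, filled where the adjusted p is under 0.05, black bar at the list's median). The 3 called glycolytic genes lie between -1.41 and -1.08, and 3 of the 4 called enzyme genes lie above 0.

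Markers of other cells did not all move with genotype in these libraries. Of 10 myeloid markers 6 were called higher in KO, beside 5.14% of all genes tested (median log2 fold change 2.78). The 10 summed to 56.3 CPM (WT 1), 76.6 CPM (WT 2), 114 CPM (KO 1) and 245 CPM (KO 2). Of 6 CD8 T and NK cell markers tested 1 was higher (median 1.34, sums 180.1, 335, 895 and 498 CPM in the same order). Of 5 B cell markers 1 was higher (median 0.93, sums 26.3, 69.5, 103 and 86.9 CPM). Adgre1, Csf1r, Cd14 and Mpo of the myeloid list and Ms4a1 of the B cell list had under 10 expected counts in WT 1. They passed the filter on low counts only through the KO libraries. Their calls, and the counts and medians of these lists, therefore follow in part from the filter. Flt3 of the myeloid list overlapped between genotypes, as did Prf1, Klrd1 and Pax5. Of the 10 myeloid markers Flt3 alone had a log2 fold change below 0 (-0.13, adjusted p = 0.873, edgeR). The B cell sums also differed between the WT mice. Without WT 1 edgeR called 1 myeloid, 0 CD8 and NK and 1 B cell marker higher, and without WT 2 it called 2, 2 and 4. Without KO 1 the myeloid list had 9 called higher and a median of 3.28, and without KO 2 it had 8 and 1.77. The CD8 and NK median was 0.82 without KO 1. Limma called 3 myeloid markers. Ncr1 was at 0 in both WT libraries and at 0.05 CPM in both KO libraries. Of 2 erythroid markers tested 0 were called by edgeR, by DESeq2 or by limma, and 0 had an unadjusted p under 0.05. The myeloid sum was higher in KO 2 than in KO 1, the reverse of 8 of the 9 enzyme genes, and the CD8 and NK sum was higher in KO 1. The part of these cells in the results was not tested.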

How the data were processed

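The authors deposited, per gene and library, RSEM expected counts (estimated reads, not normalised, 69.4% whole numbers), FPKM (per length and library size) and TPM (per length, every library scaled alike), as read per the file headers. Tools listed in the submitters' processing notes are RSEM 1.2.12, HISAT2 2.0.4 and Bowtie2 2.2.5, without roles, on GRCm38.p6. The sources used here give no library kit, strand or annotation.

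Expected counts were rounded, filtered (filterByExpr, minimum count 10, minimum total 15) and scaled with TMM. KO was compared with WT by the quasi-likelihood test of edgeR 4.0.16 (R 4.3.3), robust, with genotype as the single term and Benjamini-Hochberg adjustment over 12680 genes. Residual degrees of freedom were 2, with a prior of 3.58. Standard errors were derived from each fold change and its F statistic. CPM are TMM-scaled. Alternatives used DESeq2 1.42.0 and limma 3.58.1 (pseudocount 1 TPM). The steps were also run on simulated data that had the same spread in both genotypes. The KO libraries here were less alike than the WT libraries, so that run does not measure how reliable these calls are.

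Of the table's gene IDs 17787 matched RefSeq (GRCm38.p6), the source of gene coordinates and promoter windows, and shared exon bases come from GENCODE M21. All 9 members are named whatever their result, with up to 4 called genes per neighbouring list and the 5 genes nearest to Phgdh (mean of at least 5 CPM). Other genes were named after their values were seen. The members and lists were chosen with earlier results of these data known.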

Additional observations from a re-analysis of the deposited data

How the results depend on the processing

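Of the 9 enzyme genes 3 were called higher and 1 lower with DESeq2 size factors in edgeR, with scaling by library size alone and without a filter on low counts, as in the edgeR fit reported. DESeq2 called 4 and 1, and 988 genes higher in all. Limma on log2(TPM + 1) called 1 and 0. Leaving out each library in turn gave between 0 and 8 higher and between 0 and 1 lower members, and over all genes between 182 and 2836 higher and between 385 and 3058 lower. Left-out libraries moved the log2 fold change between -0.21 and 0.68 for Psat1, between -0.28 and 0.68 for Psph, between 0.23 and 1.08 for Shmt1 and between -0.084 and 1.21 for Shmt2, in each case with the lowest value without KO 1 and the highest without KO 2. The mouse numbers are not said to pair the mice, and the deviations of same-numbered libraries correlated with r = 0.214 across genes. With the mouse number as a replicate block 5 members were higher and 1 lower, with 1338 genes higher and 1597 lower in all, and Phgdh (adjusted p = 0.0367) and Shmt1 (adjusted p = 0.0197) were added to the calls. The cause of these shifts was not tested. The log2 ratio of Mthfd2 to Mthfd2l differed by -0.34 in place of -1.23 with a pseudocount of 1 TPM, which exceeds the WT level of Mthfd2l. Left-out libraries moved the differences in log2 ratio between -0.32 and 0.13 for Shmt2 to Shmt1, between -1.79 and -0.67 for Mthfd2 to Mthfd2l, and between -1.98 and -1.80 for Mthfd1l to Mthfd1. The number of mice limits the precision for all genes, and the count depth limits it for Mthfd2l.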
